A study of Mus musculus with 7 samples.

Results

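The genes described here are 36 members of the unfolded protein and amino acid stress response, taken by gene symbol from the 19937 genes that had a probe set of their own on the array. All 36 were measured, and all 36 passed the filter on low signal that left 16801 genes for testing. By role, 14 are ATF4 and its targets, 4 are stress sensors of the endoplasmic reticulum (ER) with the transcription factor XBP1, 14 are ER chaperones and folding enzymes, and 4 belong to ER-associated degradation. The samples are 7 arrays of total RNA from mouse embryonic fibroblasts that had immortalised spontaneously. The wild-type group has 3 clones, the knockout group has 2 clones from mice without a working tenascin-C gene (Tnc), and the knockdown group has 2 clones of wild-type origin that stably carry a short hairpin RNA against Tnc. All groups were grown for 2 days in DMEM with fetal calf serum and had no treatment. The labels give no strain or embryonic age and do not name the animals behind the clones, so a p-value reflects how far these clones differ from each other and may not cover differences between animals. Cells with a control hairpin are not analysed here, so carrying a hairpin and having less Tnc cannot be told apart in the knockdown. The knockout clones come from other mice than the wild-type clones. Lacking Tnc and differing in animal, clone or immortalisation therefore cannot be told apart in the knockout.

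Proteins that fold badly in the ER activate the sensors PERK, IRE1 and ATF6. IRE1 splices the mRNA of XBP1, and XBP1 and ATF6 raise chaperones, oxidoreductases and the degradation machinery. PERK, like the amino acid sensor GCN2, phosphorylates eIF2alpha, which lowers general translation while favouring that of ATF4, a transcription factor that raises amino acid uptake, amino acid synthesis and regulators of the stress response. Fibroblasts secrete much collagen and fibronectin, and both branches serve that load.

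Tnc, which encodes the matrix glycoprotein that the study removed, had log2 signals of 10.89, 11.42 and 11.38 in wild type, 8.05 and 8.51 in knockout, and 7.34 and 6.52 in knockdown. By limma, it fell by 2.95 in knockout (adjusted p = 0.042) and fell by 4.30 in knockdown (adjusted p = 0.0339). Leaving out any single array ended both calls, and over all alternatives the adjusted p was 0.0172 to 0.274 and 0.0126 to 0.297. Whether its probe set lies in the deleted stretch is not known here. All 9 fibroblast markers lay above the median of every array, with summed log2 signals of 101.1 to 104.6 in wild type, 103.9 to 105.7 in knockout and 105.7 to 106.3 in knockdown. Single fibroblast markers went different ways in knockout: Pdgfra, a growth factor receptor, differed by -1.42 on the log2 scale (adjusted p = 0.152) with both arrays below wild type, while the matrix genes Col1a1 and Fn1 were higher by 0.69 (adjusted p = 0.239) and 0.54 (adjusted p = 0.27) with both arrays above. Of the markers of other cell types, 2 of 6 epithelial, 0 of 5 endothelial, 1 of 5 macrophage and blood, 1 of 5 skeletal muscle, 2 of 4 neural and 0 of 4 adipocyte genes lay above it on every array. The skeletal muscle gene was Acta1, with 7.53 to 8.08 in knockout against 6.87 to 6.95 in wild type, while the defining factor Myog stayed at 4.61 to 5.29 in both groups. The summed muscle markers spanned 25.8 to 27.1 in wild type, 26.2 to 27.6 in knockout and 25.7 to 26.2 in knockdown, and the part of these and the fibroblast markers in the results below was not tested. In such bulk samples, fewer cells of a type and less RNA per cell cannot be told apart. The arrays numbered 2 of both deficient groups stood apart in sex-linked genes: Xist was high (8.80) on knockout array 2 alone, and the Y-linked Uty, at 6.75 to 8.02 on the remaining 5, was low on both (3.14 and 4.98). Knockout array 2 thus had a female pattern, while knockout array 1 and the wild-type arrays had a male one. Knockdown array 2, with Xist at 3.74, had neither in full. The part of sex in the results below was not tested. Some results of the ATF4 and folding lists are therefore also given without both arrays numbered 2, which leaves each deficient group a single array. For the other lists that fit is not given by itself. The p-values of such a fit measure no spread within these groups. A fit without 1 array of a deficient group likewise leaves that group a single array. Its p-values rest on the spread within the other groups.

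The ATF4 branch and the ER folding branch are known to act through different promoter elements. Promoter stretches are shown because the genes of both branches had unlike values on the arrays. RefSeq promoters of build GRCm38.p6, from 250 bases before to 50 after the start site, were at hand for 32 of the 36 members and for 32851 windows in all. The C/EBP-ATF response element, TGATGNAA on either strand, was found in 3.97% of all windows and in 4 of 13 genes of the ATF4 list (Asns, Trib3, Chac1 and Atf3), in 1 of 4 degradation genes (Herpud1), in 0 of 12 ER folding genes and in 0 of 3 sensor genes. The ER stress response element, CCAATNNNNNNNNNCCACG on either strand, was found in 0.119% of all windows and in 7 of 12 ER folding genes (Hspa5, Hsp90b1, Dnajc3, Pdia6, Creld2, Calr and Canx), in 1 of 4 degradation genes (Syvn1) and in 0 of 13 genes of the ATF4 list. No member held both. The unfolded protein response element TGACGTGG, found in 0.676% of all windows, was in 0 of 32 members. A member counts once if any of its windows matches, while the background shares are of windows, so their units differ. A match describes letters in the window and is not a shown binding site.

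Of the 5 members with a C/EBP-ATF response element, 4 are shown, and Trib3, whose match lies after the start site, is not. The stretches hold the match in capitals with its flanks in lower case, and they span chr6:7693210-7693247 (minus strand) for Asns, chr2:119351034-119351071 (plus strand) for Chac1, chr1:191183421-191183458 (minus strand) for Atf3 and chr8:94386302-94386339 (plus strand) for Herpud1.
Asns: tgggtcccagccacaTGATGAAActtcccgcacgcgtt
Chac1: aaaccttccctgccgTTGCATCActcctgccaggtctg
Atf3: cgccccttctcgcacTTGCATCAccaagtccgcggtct
Herpud1: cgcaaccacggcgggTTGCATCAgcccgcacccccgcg

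Of the 8 members with an ER stress response element, 5 are shown as examples, without Hsp90b1, Dnajc3 and Canx. The stretches, with the match in capitals, span chr2:34772010-34772058 (plus strand) for Hspa5, chr12:17266476-17266524 (plus strand) for Pdia6, chr15:88819505-88819553 (plus strand) for Creld2, chr8:84847060-84847108 (minus strand) for Calr and chr19:6046517-6046565 (plus strand) for Syvn1.
Hspa5: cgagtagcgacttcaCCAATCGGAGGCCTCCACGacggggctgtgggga
Pdia6: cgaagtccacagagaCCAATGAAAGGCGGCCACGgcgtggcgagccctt
Creld2: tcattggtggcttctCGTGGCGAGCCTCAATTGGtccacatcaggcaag
Calr: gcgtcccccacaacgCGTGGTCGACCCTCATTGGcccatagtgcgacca
Syvn1: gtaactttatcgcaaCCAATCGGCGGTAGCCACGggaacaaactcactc

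The mRNAs of the ATF4 list stood higher on average in knockout than in wild-type fibroblasts, while no member passed the test over all genes. The list was chosen with earlier results of these data known, so its counts beside the shares of all genes only describe it. ATF4 protein and eIF2alpha phosphorylation were not measured, so these levels do not measure ATF4 activity. All 14 members of the list had a positive difference, with a median of 0.52 on the log2 scale and a range of 0.16 to 1.72. Over all genes tested, the median difference was -0.03, and 42.6% of genes were higher. By limma, 0 of 14 members had an adjusted p under 0.05, against 0.167% of all genes, and the lowest adjusted p in the list was 0.107. An unadjusted p under 0.05 in the higher direction was reached by 11 of 14 members, against 7.33% of all genes, and in the lower direction by 0 of 14, against 5.5%. Both knockout arrays lay above all wild-type arrays for 12 of 14 members, against 13.2% of all genes, and below all of them for 0 of 14, against 15.3%. Of the 11 members, 8 kept an unadjusted p under 0.05 in each of the 7 fits that left out 1 array. Without both arrays numbered 2, 13 of 14 members were still higher and the median was 0.66. The exception was Shmt2, at -0.01, as it was without knockout array 2 alone. Both fits keep knockout array 1, on which the list stood higher (median 0.66 relative to wild type) than on knockout array 2 (0.43).

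The transcription factors of the branch were higher on both knockout arrays. Atf4, the factor itself (probe set 10425364), had log2 signals of 8.55, 9.01 and 8.68 in wild type, 9.62 and 9.82 in knockout, and 8.86 and 9.20 in knockdown. Both knockout arrays were above the other 5, and the knockdown arrays overlapped the wild-type range. The knockout difference was 0.98 (SE 0.174, 1.97-fold, adjusted p = 0.116), and the knockdown difference was 0.29 (SE 0.174, adjusted p = 0.516). Atf5, a related factor whose translation is also favoured under stress (probe set 10562905), had signals of 7.97, 8.27 and 8.13 in wild type, 9.01 and 8.72 in knockout, and 8.26 and 8.27 in knockdown. The knockout arrays again stood clear of the other 5. The difference for Atf5 was 0.74 in knockout (SE 0.127, 1.67-fold, adjusted p = 0.107) and 0.14 in knockdown (SE 0.127, adjusted p = 0.664). Atf3, a stress-induced factor of the same family, had a mean ± SD of 6.51 ± 0.163 over the 3 wild-type arrays, 7.07 ± 0.156 over 2 knockout arrays and 6.43 ± 0.333 over 2 knockdown arrays. Ddit3, which encodes the pro-apoptotic factor CHOP, had 7.03 ± 0.182, 7.61 ± 0.114 and 7.07 ± 0.096 in the same order. For both genes the knockout arrays did not overlap with the wild-type arrays, and the knockdown arrays did.

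**Figure D1:**
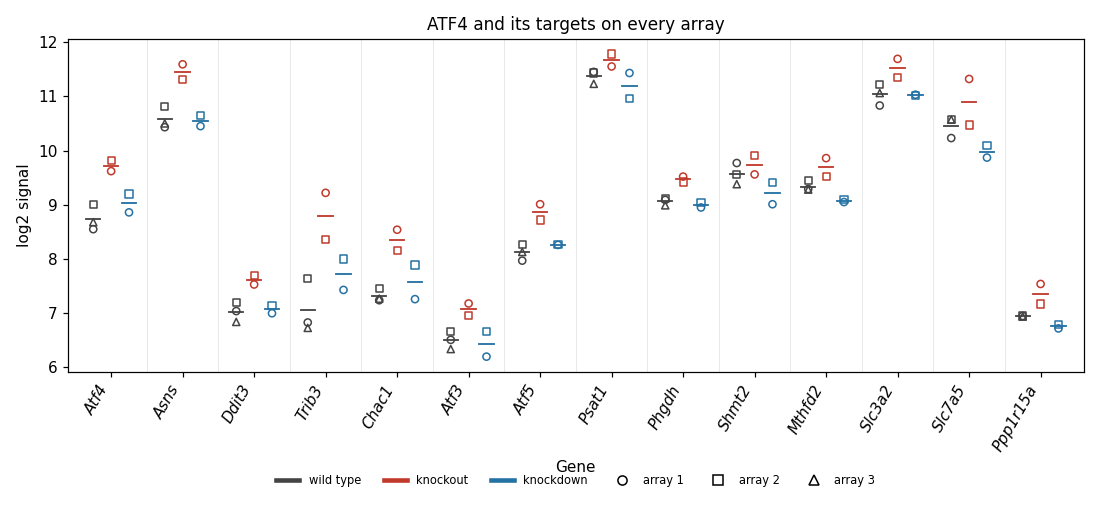
Log2 signal (y axis) of ATF4 and its targets on each of the 7 arrays, with open symbols for arrays, a horizontal line for each group mean, and colours for wild type, knockout and knockdown. The knockout arrays lie above all wild-type arrays for 12 of the 14 genes, and the levels of different genes are not comparable because each has its own probe set.

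Feedback and stress regulators downstream of ATF4 were higher in knockout too. Chac1, an enzyme that degrades glutathione (probe set 10474972), had signals of 7.24, 7.46 and 7.27 in wild type, 8.54 and 8.16 in knockout, and 7.26 and 7.89 in knockdown. Knockout was high on both arrays, and knockdown array 2 lay between the groups. The difference was 1.03 in knockout (SE 0.211, 2.04-fold, adjusted p = 0.139) and 0.25 in knockdown (SE 0.211, adjusted p = 0.638). Ppp1r15a, which encodes the GADD34 subunit that directs a phosphatase to eIF2alpha (probe set 10563338), had signals of 6.95, 6.95 and 6.94 in wild type, 7.54 and 7.17 in knockout, and 6.72 and 6.80 in knockdown. The wild-type arrays were nearly equal, with knockout above and knockdown below them without overlap. Its difference was 0.41 in knockout (SE 0.118, adjusted p = 0.245) and -0.19 in knockdown (SE 0.118, adjusted p = 0.539). Trib3, a pseudokinase that restrains ATF4 and CHOP, is given array by array because it had the largest difference of the list, a choice made after its values were seen. It had signals of 6.83, 7.64 and 6.73 in wild type, 9.22 and 8.36 in knockout, and 7.43 and 8.00 in knockdown. The knockout arrays were the highest of the 7, and wild-type array 2 stood apart from its group. The Trib3 difference was 1.72 in knockout (SE 0.381, 3.3-fold, adjusted p = 0.16) and 0.65 in knockdown (SE 0.381, adjusted p = 0.504).

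The amino acid synthesis members were higher in knockout as well. Asns, the asparagine synthetase whose promoter match is shown above (probe set 10543067), had signals of 10.43, 10.81 and 10.50 in wild type, 11.59 and 11.31 in knockout, and 10.45 and 10.64 in knockdown. Both knockout arrays were above the other 5, and knockdown lay within the wild-type range. The difference was 0.87 in knockout (SE 0.151, 1.83-fold, adjusted p = 0.111) and -0.04 in knockdown (SE 0.151, adjusted p = 0.937). Phgdh, the first enzyme of serine synthesis (probe set 10500529), had signals of 9.09, 9.12 and 8.99 in wild type, 9.52 and 9.42 in knockout, and 8.95 and 9.04 in knockdown. Its arrays agreed closely within each group, and knockout did not overlap with either other group. The Phgdh difference was 0.41 in knockout (SE 0.080, 1.33-fold, adjusted p = 0.131) and -0.08 in knockdown (SE 0.080, adjusted p = 0.713). A further probe set that the annotation lists for Phgdh together with another gene was not used. Psat1, the next enzyme of serine synthesis, had a mean ± SD of 11.37 ± 0.119 over the 3 wild-type arrays, 11.67 ± 0.164 over 2 knockout arrays and 11.20 ± 0.328 over 2 knockdown arrays.

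The mitochondrial folate enzymes had positive differences in knockout and negative ones in knockdown. The gap between both deficient groups was therefore wider than either difference, as it was for other members such as Asns, Phgdh, Slc7a5 and Ppp1r15a. Mthfd2, a dehydrogenase and cyclohydrolase of one-carbon metabolism (probe set 10545672), had signals of 9.29, 9.44 and 9.28 in wild type, 9.86 and 9.52 in knockout, and 9.05 and 9.09 in knockdown. As for Ppp1r15a, knockout lay above and knockdown below all wild-type arrays. The Mthfd2 difference was 0.36 in knockout (SE 0.119, adjusted p = 0.312) and -0.26 in knockdown (SE 0.119, adjusted p = 0.397), which was the lowest adjusted p of the list in that comparison. Shmt2, which makes glycine from serine in mitochondria, had a mean ± SD of 9.57 ± 0.195 over the 3 wild-type arrays, 9.73 ± 0.242 over 2 knockout arrays and 9.21 ± 0.284 over 2 knockdown arrays. The knockout arrays of Shmt2 overlapped the wild-type range, as did the knockdown arrays.

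The subunits of the large neutral amino acid exchanger were higher in knockout on average, with clones that differed for the light chain. Slc3a2, the shared heavy chain, had a mean ± SD of 11.04 ± 0.198 over the 3 wild-type arrays, 11.52 ± 0.240 over 2 knockout arrays and 11.03 ± 0.005 over 2 knockdown arrays. Slc7a5, the light chain LAT1 that carries leucine and tryptophan, is also given array by array by a choice made after its values were seen. It had signals of 10.23, 10.57 and 10.57 in wild type, 11.32 and 10.47 in knockout, and 9.87 and 10.09 in knockdown. Knockout array 1 was the highest of the 7, knockout array 2 lay within the wild-type range, and both knockdown arrays were below it. The Slc7a5 difference was 0.44 in knockout (SE 0.258, adjusted p = 0.528) and -0.48 in knockdown (SE 0.258, adjusted p = 0.475).

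In knockdown cells the ATF4 branch had members on both sides of wild type. Of its 14 members, 5 were higher and 9 lower, with a median difference of -0.06 and a range of -0.48 to 0.65, beside a median of 0.03 and 56.8% of genes higher over all genes. By limma, 0 of 14 had an adjusted p under 0.05, against 0.0179% of all genes. An unadjusted p under 0.05 was reached by 0 of 14 in the higher direction, against 7.12% of all genes, and by 0 of 14 in the lower direction, against 6.99%. Both knockdown arrays lay above all wild-type arrays for 0 members, against 17.5% of all genes, and below them for 3 (Mthfd2, Slc7a5 and Ppp1r15a), against 12.9%. These values rested on single arrays. Without wild-type array 2 the median was 0.04 and Atf4 and Trib3 reached an unadjusted p under 0.05 as higher, and without knockdown array 1 the median was 0.02, with Chac1 higher and Psat1 lower at that level. Without either knockout array, which changes the estimate of the spread and not the difference, Mthfd2, Slc7a5 and Ppp1r15a reached it as lower, and without knockdown array 2, Shmt2 did.

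**Figure D2:**
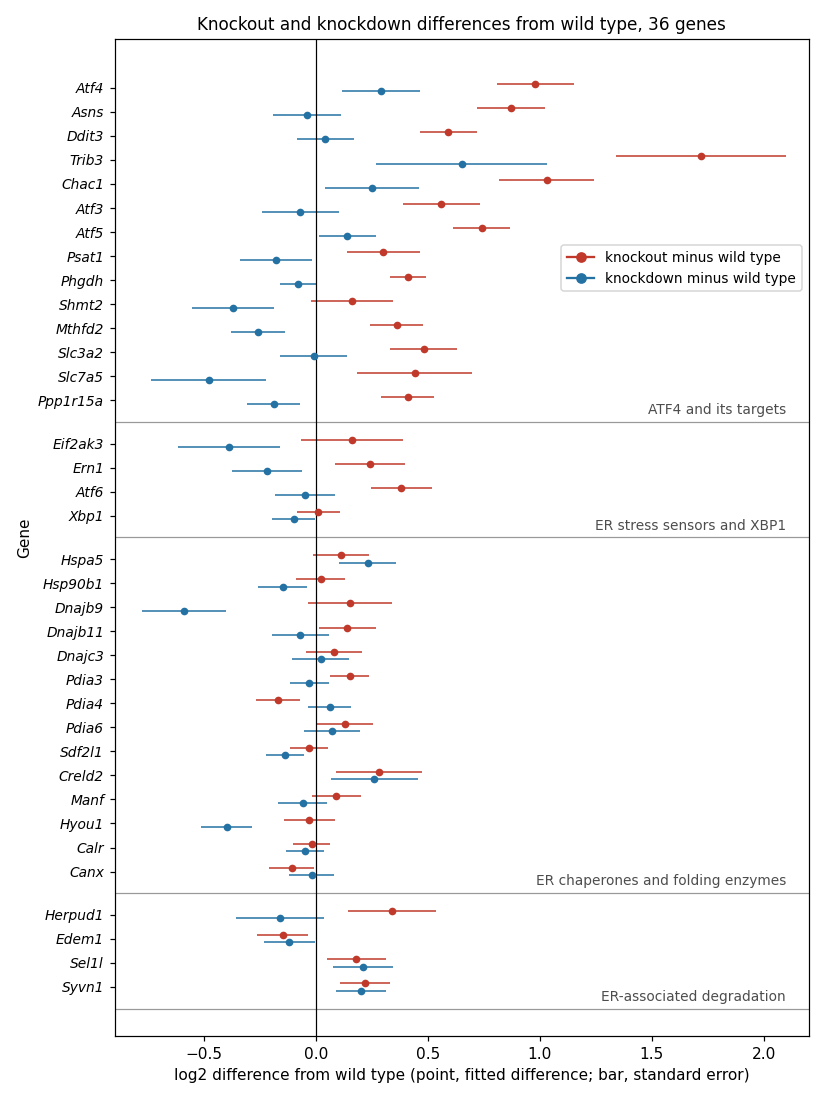
Fitted log2 difference from wild type (x axis) of the 36 genes (y axis), with a point for each difference, a bar for its standard error, and colours for knockout and knockdown. All 14 knockout differences of the ATF4 list are above 0, with a median of 0.52, while those of the ER folding list have a median of 0.08; both differences of a gene use the same wild-type arrays.

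Both differences above share the wild-type arrays, so knockout was compared with knockdown as the test of whether they differ. All 14 members of the ATF4 list were higher in knockout than in knockdown, with a median of 0.61 and a range of 0.47 to 1.08, beside a median of -0.05 and 40% of genes higher over all genes. By limma, 0 of 14 had an adjusted p under 0.05, against 0.375% of all genes, and the lowest adjusted p was 0.0891, for Phgdh. An unadjusted p under 0.05 was reached by all 14 as higher, against 9.05% of all genes, and by 0 as lower, against 8.87%. Both knockout arrays lay above both knockdown arrays for all 14, against 17.8% of all genes, and below them for 0, against 27.2%. The count of 14 was 7 without knockdown array 1 and to 9 without knockout array 1, and it was 11 to 13 without any other single array. Asns, Atf5, Ddit3, Mthfd2, Phgdh and Ppp1r15a, 6 genes in all, kept an unadjusted p under 0.05 in each of those 7 fits. Without both arrays numbered 2 all 14 were still higher, with a median of 0.79, in a comparison of a single array with a single array.

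The gap between both deficient groups is also given for single members, which are part of the counts above and add no separate support. The knockout minus knockdown difference was 0.91 for Asns (SE 0.165, 1.88-fold, adjusted p = 0.0895) and 0.48 for Phgdh (SE 0.087, 1.4-fold). For Mthfd2 it was 0.62 (SE 0.131, adjusted p = 0.115). For Ppp1r15a it was 0.60 (SE 0.130, adjusted p = 0.117), and this gene passed without knockout array 2, with an adjusted p of 0.0481 and a range of 0.0481 to 0.349 over all alternatives. For Atf5 it was 0.60 (SE 0.139, adjusted p = 0.135), and for Atf4 it was 0.69 (SE 0.190, adjusted p = 0.168). Slc7a5, at 0.91 (SE 0.283, adjusted p = 0.192), and Trib3, at 1.08 (SE 0.418, adjusted p = 0.264), had gaps as large with wider errors.

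The ER stress sensors and XBP1 lay a little higher in knockout and a little lower in knockdown, within or close to the wild-type range. Against wild type, 4 of 4 were higher in knockout with a median of 0.20, and 4 of 4 were lower in knockdown with a median of -0.16. Counts at an unadjusted p under 0.05 stand beside 7.33% of all genes as higher and 5.5% as lower in knockout. In knockdown these shares were 7.12% and 6.99%. Without wild-type array 3 the knockout median was 0.07, with 2 of 4 higher, and without wild-type array 1 the knockdown median was -0.09, with 3 of 4 lower. Atf6, the sensor that is itself cut into a transcription factor (probe set 10359982), had signals of 8.98, 8.72 and 8.57 in wild type, 9.20 and 9.08 in knockout, and 8.63 and 8.79 in knockdown. Both knockout arrays were above the other 5 arrays. The knockout difference was 0.38 (SE 0.136, adjusted p = 0.338), the only unadjusted p under 0.05 of the 4 against wild type, and it kept that level in 3 of the 7 fits without 1 array, those without wild-type array 1 or either knockdown array. Against knockdown the Atf6 difference was 0.43 (SE 0.149, adjusted p = 0.226).

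Ern1, which encodes IRE1 (probe set 10392183), had signals of 6.09, 5.93 and 5.83 in wild type, 6.08 and 6.30 in knockout, and 5.95 and 5.52 in knockdown. The 3 groups overlapped except knockout with knockdown, which differed by 0.46 (SE 0.171, adjusted p = 0.254). Eif2ak3, which encodes PERK (probe set 10538939), had signals of 7.89, 8.07 and 7.33 in wild type, 8.06 and 7.78 in knockout, and 7.31 and 7.43 in knockdown. Wild-type array 3 lay with the knockdown arrays, and the knockdown difference of -0.39 (SE 0.228, adjusted p = 0.498) was close to the wild-type SD of 0.389. Xbp1, the factor activated by IRE1, had a mean ± SD of 8.86 ± 0.128 over the 3 wild-type arrays, 8.87 ± 0.054 over 2 knockout arrays and 8.76 ± 0.044 over 2 knockdown arrays. Its probe set does not separate spliced from unspliced mRNA here, so these levels do not measure XBP1 activation. As groups, 4 of 4 were higher in knockout than in knockdown without overlap of the arrays, against 17.8% of all genes, with a median of 0.44. Of them, Ern1 and Atf6 had an unadjusted p under 0.05, against 9.05% of all genes as higher. Without knockout array 2, 0 of 4 reached that level against knockdown. Against wild type, Eif2ak3 reached it as lower in knockdown without wild-type array 3, and Ern1 without knockdown array 1.

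The ER chaperones and folding enzymes had differences on both sides of 0 in knockout. Of 14 members, 9 were higher and 5 lower, with a median difference of 0.08 and a range of -0.17 to 0.28. By limma, 0 had an adjusted p under 0.05, and 0 had an unadjusted p under 0.05 in either direction, where all genes had 7.33% as higher and 5.5% as lower. The knockout arrays lay above all wild-type arrays for 1 of 14 (Pdia3) and below them for 2 of 14 (Pdia4 and Canx), near the 13.2% and 15.3% of all genes. Without knockout array 2 the median was -0.03, with 6 higher and 8 lower, and without wild-type array 3 it was 0.01. Without knockout array 1 it was 0.13, and Creld2 and Manf had an unadjusted p under 0.05 as higher.

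Hspa5, the main ER chaperone BiP and the usual readout of the folding branch, had signals of 11.59, 11.93 and 11.68 in wild type, 11.79 and 11.90 in knockout, and 11.86 and 12.06 in knockdown. The groups overlapped, and Hspa5 was given array by array by a choice made after its values were seen. The difference was 0.11 in knockout (SE 0.126, adjusted p = 0.726) and 0.23 in knockdown (SE 0.126, adjusted p = 0.479). Pdia4, a disulfide isomerase (probe set 10544525), had the smallest p of the list in knockout, with signals of 10.64, 10.79 and 10.65 in wild type, 10.51 and 10.55 in knockout, and 10.64 and 10.87 in knockdown. Knockout was below both other groups, by -0.17 against wild type (SE 0.097, adjusted p = 0.516).

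Other abundant folding factors differed by little in knockout. Against wild type the difference was 0.02 for Hsp90b1, the ER form of HSP90, -0.02 for the lectin chaperone Calr and -0.11 for its membrane-bound relative Canx. The disulfide isomerases Pdia3 and Pdia6 differed by 0.15 and 0.13. The co-chaperones Dnajb11, Dnajc3 and Dnajb9 differed by 0.14, 0.08 and 0.15, and Sdf2l1, a partner of BiP, by -0.03. The secreted ER stress proteins Creld2 and Manf differed by 0.28 and 0.09, and Hyou1 by -0.03. None of these had an unadjusted p under 0.05, and their SE ran from 0.084 to 0.193.

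In knockdown the folding list also had differences on both sides of 0, the lowest being those of Dnajb9 and Hyou1. Other partners of BiP did not share them, with Sdf2l1 at -0.14, Dnajb11 at -0.07 and Dnajc3 at 0.02. Of 14 members, 5 were higher and 9 lower, with a median of -0.04 and a range of -0.59 to 0.26, and 0 had an adjusted p under 0.05. Dnajb9, a co-chaperone that binds IRE1 and unfolded clients (probe set 10400137), had signals of 8.09, 7.81 and 7.68 in wild type, 7.78 and 8.25 in knockout, and 7.39 and 7.17 in knockdown. Both knockdown arrays were the lowest of the 7. The knockdown difference was -0.59 (SE 0.187, 1.5-fold, adjusted p = 0.263), and knockout exceeded knockdown by 0.74 (SE 0.205, adjusted p = 0.168). Hyou1, a large chaperone that exchanges nucleotide on BiP (probe set 10584712), had signals of 9.66, 9.66 and 9.53 in wild type, 9.53 and 9.64 in knockout, and 9.38 and 9.06 in knockdown. Here too both knockdown arrays were the lowest. The knockdown difference was -0.40 (SE 0.115, 1.32-fold, adjusted p = 0.231), and knockout exceeded knockdown by 0.36 (SE 0.126, adjusted p = 0.228).

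These 2 of 14 members had an unadjusted p under 0.05 in knockdown, both as lower, against 6.99% of all genes, and 3 of 14 had both knockdown arrays below wild type, against 12.9%. Counts of 14 genes do not set the list apart from those shares. The level was lost for Dnajb9 without wild-type array 1 and for both without knockdown array 2, and without wild-type array 2 Hspa5 joined as higher. Without both arrays numbered 2, Dnajb9 and Hyou1 were still lower in knockdown. Sdf2l1 also had both knockdown arrays below wild type, at a mean ± SD of 7.08 ± 0.025 (n = 2) against 7.22 ± 0.109 (n = 3). Creld2 was the 1 member of 14 with both above, against 17.5% of all genes. Between knockout and knockdown, 11 of 14 were higher in knockout, with a median of 0.09, and the arrays did not overlap for 6 as higher, against 17.8% of all genes, and for 2 as lower, against 27.2%. Dnajb9 and Hyou1 were again the 2 with an unadjusted p under 0.05, against 9.05% of all genes as higher. Both lost it without knockout array 2 or knockdown array 2. Manf joined them as higher without knockout array 1, and Pdia4 as lower without knockdown array 1.

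**Figure D3:**
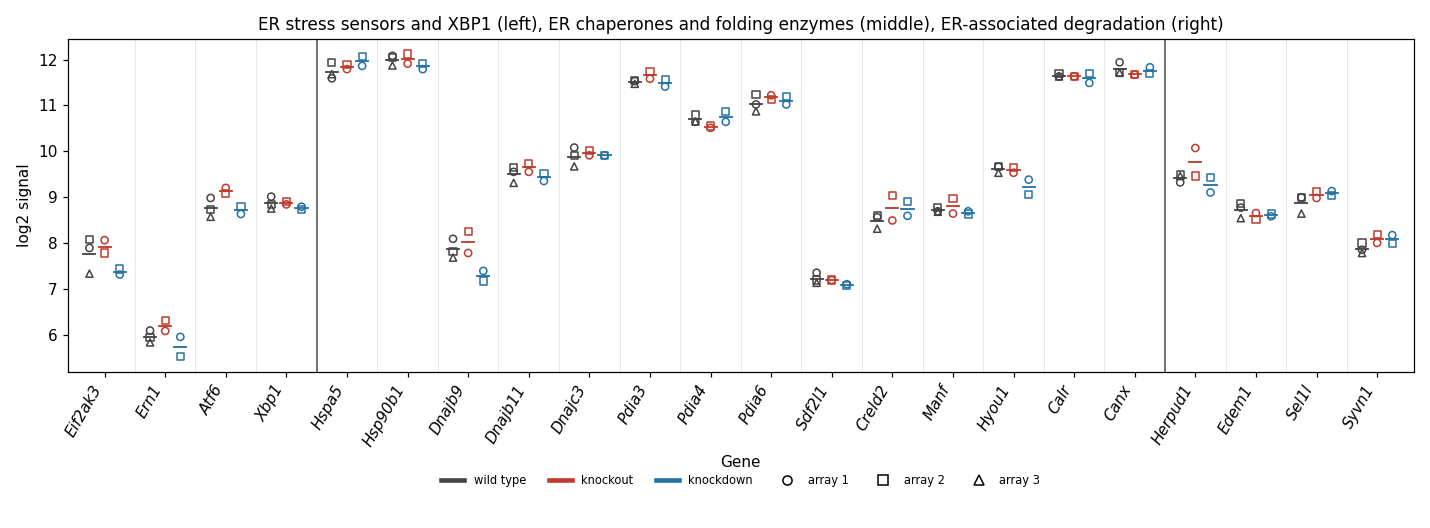
Log2 signal (y axis) of the ER stress sensors and XBP1, the ER chaperones and folding enzymes, and the ER-associated degradation genes on each of the 7 arrays, with open symbols for arrays and horizontal lines for group means. Dnajb9, Hyou1 and Sdf2l1 have both knockdown arrays below the wild-type arrays, and Creld2 has both above. The knockdown arrays of the other folding genes overlap the wild-type range.

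The ER-associated degradation members had small differences in both deficient groups. Against wild type, 3 of 4 were higher in knockout with a median of 0.20 and 2 of 4 in knockdown with a median of 0.04. No member had an unadjusted p under 0.05 in any of the 3 comparisons, where all genes had 5.5% to 9.05% in each direction. Syvn1, the ubiquitin ligase HRD1 (probe set 10460706), had signals of 7.85, 8.00 and 7.78 in wild type, 8.00 and 8.19 in knockout, and 8.17 and 7.98 in knockdown. Its difference was positive in knockout, at 0.22 (SE 0.112, adjusted p = 0.472), and in knockdown, at 0.20 (SE 0.112, adjusted p = 0.49), with arrays that overlapped. Sel1l, the adaptor of HRD1, differed by 0.18 in knockout and 0.21 in knockdown, and Edem1, a lectin that hands over misfolded glycoproteins, by -0.15 and -0.12.

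Herpud1, a membrane scaffold of the same complex (probe set 10574087), had signals of 9.32, 9.49 and 9.46 in wild type, 10.07 and 9.46 in knockout, and 9.10 and 9.42 in knockdown. Knockout array 1 stood above the other 6, and knockout array 2 was level with wild type. The knockout difference was 0.34 (SE 0.197, adjusted p = 0.516), and knockout exceeded knockdown by 0.51 (SE 0.216, adjusted p = 0.294). Without knockout array 2 both differences of Herpud1 had an unadjusted p under 0.05, at 0.65 and 0.81, and without wild-type array 3 Edem1 did in knockout, as lower.

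Genes were also described by the promoter letters shown above. Of the members with a C/EBP-ATF response element, 4 of 5 belong to the ATF4 list, whose members were all higher in knockout. Of those with an ER stress response element, 7 of 8 belong to the folding list. The values below thus repeat those of the lists and do not test the letters. Other genes with these letters were not examined. Over all genes tested, 42.6% were higher in knockout and 56.8% in knockdown. The 5 members with a C/EBP-ATF response element were all higher in knockout than in wild type, from 0.34 to 1.72 with a median of 0.87, and 2 of 5 were higher in knockdown, from -0.16 to 0.65 with a median of -0.04. Of the 8 members with an ER stress response element, 6 were higher in knockout, from -0.11 to 0.28 with a median of 0.10, and 5 in knockdown, from -0.15 to 0.26 with a median of 0.05. The lowest value of the first set was that of Herpud1, which rested on knockout array 1. On knockout array 2 alone, relative to the wild-type mean, the first set ran from 0.04 to 1.29 and the second from -0.11 to 0.56, so the ranges overlapped there, and on knockout array 1 alone they ran from 0.65 to 2.15 and from -0.12 to 0.18. The ATF4 list also holds higher genes without a match in the window, among them Atf5 and Phgdh.

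The clones of a group were not alike within the ATF4 branch, nor within the folding list. Relative to the wild-type mean of each gene, the median of the ATF4 list was -0.07, 0.14 and -0.07 on the wild-type arrays, 0.66 and 0.43 on the knockout arrays, and -0.09 and 0.02 on the knockdown arrays. Of the 14 members, 10 were lower on knockout array 2 than on knockout array 1, with a median difference of -0.28, and 12 were higher on knockdown array 2 than on array 1, with a median of 0.16. For the folding list the array medians were 0.04, 0.04 and -0.09 in wild type, -0.03 and 0.13 in knockout, and -0.08 and 0.02 in knockdown. The knockout values of that list lay on either side of 0, so its small positive median came from array 2. Of its 14 members, 12 were higher and 1 lower on knockout array 2 than on knockout array 1, with a median difference of 0.11. Between the knockdown arrays, 8 were higher and 5 lower on array 2, with a median of 0.14. Such counts were not taken over all genes, so neither list is set apart by them.

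Other genes of the amino acid branch, from lists drawn up beside the members, were mostly higher in knockout. These lists, like the members, were chosen with earlier results of these data known, so their counts add no separate support. The counts at an unadjusted p under 0.05 in these lists stand beside 7.33% of all genes as higher and 5.5% as lower in knockout, and 7.12% and 6.99% in knockdown. Of 13 other ATF4-responsive genes, 11 were higher in knockout with a median of 0.50, 9 of them at an unadjusted p under 0.05, and 10 were higher in knockdown with a median of 0.16, 0 at that level. Nupr1, a small stress-induced chromatin protein, had signals of 7.23, 7.73 and 7.29 in wild type, 9.17 and 9.02 in knockout, and 7.88 and 7.30 in knockdown, a knockout difference of 1.68 (SE 0.220, 3.2-fold, adjusted p = 0.0686). Jdp2, a repressor that binds the same class of sites as ATF3, differed by 0.70 (SE 0.090, adjusted p = 0.0668). Both genes separated knockout from the other 5 arrays. Of 11 aminoacyl-tRNA synthetases, 9 were higher in knockout with a median of 0.25, 5 at an unadjusted p under 0.05, and 8 were higher in knockdown with a median of 0.05. Tars, which charges threonine tRNA, had signals of 10.23, 10.24 and 9.93 in wild type, 11.03 and 11.01 in knockout, and 10.26 and 10.26 in knockdown, a knockout difference of 0.89 (SE 0.110, 1.85-fold, adjusted p = 0.0631). Eprs, which charges glutamate and proline tRNA, differed by 0.44 (SE 0.131, adjusted p = 0.264). Lars, the leucine enzyme, differed by 0.20 in knockdown (SE 0.073, adjusted p = 0.314), and Cars, the cysteine enzyme, by 0.45 between knockout and knockdown (SE 0.103, adjusted p = 0.133).

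Of 10 further amino acid synthesis enzymes, 7 were higher in knockout with a median of 0.49, 6 at an unadjusted p under 0.05, and 9 of 10 were lower in knockdown with a median of -0.18, 2 at that level. Gpt2, the mitochondrial alanine transaminase, had signals of 7.90, 7.87 and 7.82 in wild type, 8.94 and 8.51 in knockout, and 7.57 and 7.47 in knockdown. Knockout lay above and knockdown below wild type, and the gap between both was 1.21 (SE 0.145, 2.31-fold, adjusted p = 0.0488), which passed. Got1, the cytosolic aspartate transaminase, differed by 0.56 in knockout (SE 0.111, adjusted p = 0.131) and by 0.70 between knockout and knockdown (SE 0.121, adjusted p = 0.0851). Cth, which makes cysteine from cystathionine, differed by -0.73 in knockdown (SE 0.284, adjusted p = 0.336). The call of Gpt2 was lost without any single array other than knockout array 2, and its adjusted p was 0.0222 to 0.312 over all alternatives.

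Of 9 amino acid transporters outside the list, 8 were higher in knockout with a median of 0.59, but 1 had an unadjusted p under 0.05. That gene was Slc38a2, the amino acid-responsive carrier SNAT2, with a difference of 0.59 in knockout (SE 0.100, adjusted p = 0.102) and 0.28 in knockdown (SE 0.100, adjusted p = 0.297). The arrays of both deficient groups were above wild type for this gene. Its relative Slc38a1 differed by -2.03 in knockdown (SE 0.799, adjusted p = 0.338) and by 3.36 between knockout and knockdown (SE 0.875, adjusted p = 0.153). The transporter median was 0.86 on knockout array 1 and 0.16 on knockout array 2, so the list value came mostly from 1 clone. The 6 eIF2alpha kinases and partners, which act before ATF4, had 2 higher in knockout with a median of -0.10 and 0 at an unadjusted p under 0.05 in any comparison.

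Of 18 other folding and glycosylation genes, 15 were higher in knockout with a median of 0.15, 5 at an unadjusted p under 0.05 against 7.33% of all genes, and 8 were higher in knockdown with a median of -0.05. Ero1a, the oxidase that recharges disulfide isomerases, had signals of 8.88, 8.98 and 8.71 in wild type, 9.80 and 9.87 in knockout, and 8.58 and 8.30 in knockdown. Knockout lay above and knockdown below all wild-type arrays. The difference was 0.98 in knockout (SE 0.120, 1.97-fold, adjusted p = 0.0606) and -0.41 in knockdown (SE 0.120, adjusted p = 0.231), and the gap of 1.39 between both passed (SE 0.131, 2.62-fold, adjusted p = 0.033). That call was lost without any single array, and its adjusted p was 0.0192 to 0.307 over all alternatives. Pdia5, a disulfide isomerase, differed by 1.01 in knockout (SE 0.310, adjusted p = 0.278), and Ppib, a prolyl isomerase of collagen folding, by -0.29 in knockdown (SE 0.089, adjusted p = 0.256).

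The remaining ER and chaperone lists had medians from -0.09 to 0.17 in knockout. Of 16 translocation and vesicle coat genes, 6 were higher in knockout with a median of -0.04. The unadjusted p was under 0.05 for Srpr, a subunit of the signal recognition particle receptor, at 0.47 (adjusted p = 0.329), and for Spcs2, of the signal peptidase, at -0.28 (adjusted p = 0.364). In knockdown the smallest p-values of that list were those of Spcs1, also of the signal peptidase, at 0.29 (adjusted p = 0.283), and Sec63, a translocation factor, at -0.32 (adjusted p = 0.314). Of 11 other degradation genes, 6 were higher with a median of 0.04, led by Derl1, a channel subunit, at 0.72 (SE 0.161, adjusted p = 0.161), and Vcp, the segregase, stood at -0.31 (SE 0.093, adjusted p = 0.259). In knockdown the same list had 3 of 11 higher and 2 of 11 lower at an unadjusted p under 0.05, against 7.12% and 6.99% of all genes, among them Edem2, a mannosidase-like lectin, at 0.49 (SE 0.069, adjusted p = 0.11), and Man1b1, a mannosidase, at 0.51 (adjusted p = 0.162). Ube2j1, a ubiquitin-conjugating enzyme, exceeded knockdown by 0.56 in knockout (adjusted p = 0.135). Of 6 other ER transcription factors and proteases, 5 were higher in knockout with a median of 0.17, and 0 had an unadjusted p under 0.05. Creb3, a membrane-bound factor, differed by 0.41 between knockout and knockdown (adjusted p = 0.143). Of 8 cytosolic heat shock genes, 3 were higher in knockout and 1 in knockdown, both with a median of -0.09, and Dnaja1, an HSP70 co-chaperone, stood at -0.58 in knockdown (SE 0.076, adjusted p = 0.11) and Dnajb1, a relative, at -0.40 (adjusted p = 0.189). Of 7 mitochondrial chaperones and proteases, 6 were higher in knockout with a median of 0.06, while Hspa9, the mitochondrial HSP70, stood at -0.27 (SE 0.070, adjusted p = 0.212) and Lonp1, a protease, at 0.45 (adjusted p = 0.326).

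**Figure D4:**
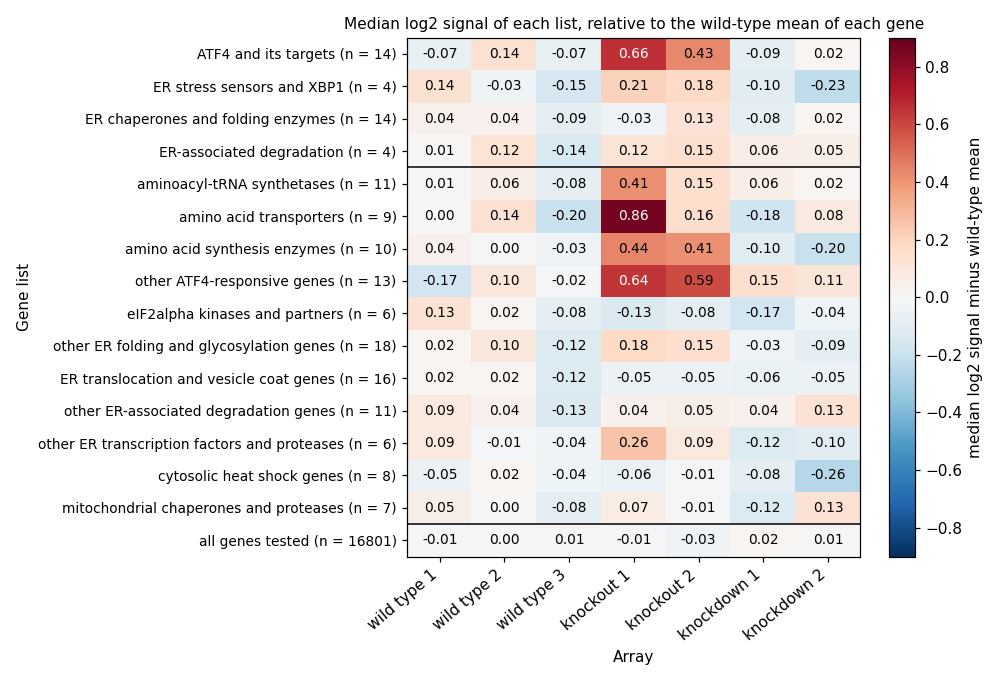
Median log2 signal of each gene list (y axis) on each array (x axis), relative to the wild-type mean of each gene, as colours with the value printed in each cell. The ATF4 list stands at 0.66 and 0.43 on the knockout arrays and the folding list at -0.03 and 0.13, while all genes tested stay within -0.03 to 0.02.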

How the data were processed

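The authors deposited 1 log2 signal value per probe set and array, 7 arrays in all, which were used as deposited. Per the submitters' processing notes, affy and R 2.8.0 were used. Methods of summarisation, background correction and normalization, like the genome build, were not given in the sources used here. That the scale is log2 follows from the range of values. Array medians lay between 5.38 and 5.49 and pairs of arrays correlated at 0.979 to 0.990. For arrays, their number limits the precision. Of 34760 probe sets, 21640 had a single gene symbol; a gene with several was represented by the probe set with the highest mean. Tested genes had to exceed the 25th percentile of signals on 2 or more arrays.

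With limma 3.58.1 (R 4.3.3), group means were fitted to all 7 arrays by lmFit, and differences were tested two-sided after eBayes, at 4 residual and 2.06 prior degrees of freedom. The fit was checked on simulated data. P-values were adjusted over all genes within each comparison (Benjamini-Hochberg). Differences are on the log2 scale, with the SE of the fit. Lists are described by counts and medians, without a test. The members and lists were chosen with earlier results of these data known. Array values are given for Tnc, Atf4 and, in each list and comparison, up to 5 members each way with an unadjusted p under 0.05 or else that of smallest p. In the other lists up to 2 genes a comparison are named, from those with an unadjusted p under 0.05. Promoter letters were searched in the RefSeq table; Slc7a5, Atf6, Manf and Hyou1 had no entry. Of 126 genes in the 11 other lists, 115 were matched and tested. The alternatives were no filter and a stricter filter (above the array median), quantile normalization, centring on the median, the mean of a gene's probe sets, array weights, a trended and robust variance, the 2 compared groups alone, the replicate block, both arrays numbered 2 left out, and each array left out.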

Additional observations from a re-analysis of the deposited data

Results flagged for a closer look

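The gap between knockout and knockdown was past the threshold for 2 of the 115 genes tested in the lists beside the members, against 0.375% of all genes. For Gpt2, the alanine transaminase, knockout exceeded knockdown by 1.21 (limma, adjusted p = 0.0488), with both knockout arrays above and both knockdown arrays below all wild-type arrays. For Ero1a, the ER oxidase, knockout exceeded knockdown by 1.39 (limma, adjusted p = 0.033), with the same order of the arrays. Both comparisons with wild type were short of the threshold for both genes. The calls of Gpt2 and Ero1a against knockdown were each lost under 11 of 17 alternatives.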

How the results depend on the processing

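Differences near 0 turned their sign under some alternatives: of the 36 members, 10 in knockout (none over 0.16 in size), 14 in knockdown (none over 0.25) and 8 between knockout and knockdown (none over 0.14). In the ATF4 list these were 1 of 14 in knockout (Shmt2), 6 of 14 in knockdown (Asns, Ddit3, Chac1, Atf3, Psat1 and Slc3a2) and 0 of 14 between both. Medians near 0 of the ATF4 list in knockdown, the folding list and the degradation list turned as well. With 28, 3 and 63 genes called in knockout against wild type, knockdown against wild type and knockout against knockdown, the first became 79 with the stricter filter, 45 with quantile normalization, 71 with centring and 70 with a trended and robust variance. The third became 38 without a filter, 111 with the stricter filter, 100 with quantile normalization, 137 with centring and 18 with array weights. With the 2 compared groups alone the counts were 6, 0 and 0, and with the replicate block 2, 0 and 2. Without wild-type array 1, 2 or 3, knockout array 1 or 2, or knockdown array 1 or 2 the first was 14, 7, 3, 26, 71, 6 and 6, and the third 16, 12, 7, 26, 103, 12 and 0; the second was 0 in each. Deviations of same-numbered arrays correlated at 0.002 between knockout and knockdown, -0.028 and -0.074 between wild type and knockout, and -0.045 and 0.199 between wild type and knockdown, so the replicate block rests on a shared number alone.

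For the ATF4 list, the median without 1 array ranged from 0.43 to 0.66 in knockout and from 0.54 to 0.75 against knockdown, and without both arrays numbered 2 it was 0.66 and 0.79. Its members at an unadjusted p under 0.05 in knockdown, 0 of 14, became 1 with centring and with array weights, and 3 with the 2 groups alone. Against knockdown the 14 became 9 with the 2 groups alone. For the folding list, the median without 1 array ranged from -0.029 to 0.125 in knockout and from 0.046 to 0.182 against knockdown, and it was -0.029 in knockout without both arrays numbered 2. Its members at an unadjusted p under 0.05 without 1 array were 0 to 2 in knockout, 0 to 3 in knockdown and 0 to 3 against knockdown. Against knockdown they were 1 with the 2 groups alone and with the replicate block. The cause of these changes was not tested. Over the differences of single named genes, 1235 of the alternative values kept their side of the threshold, 13 passed it (Tars, Nupr1, Ero1a and Gpt2 in knockout, and Nupr1 and Ppp1r15a against knockdown) and 44 no longer did, all of them of Tnc, Gpt2 and Ero1a.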

Other observations

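Some amino acid transporters and other genes had clones of 1 group far apart; they were chosen after their values were seen. Slc7a3, a cationic amino acid transporter, stood at 8.18 on knockout array 1 and at 4.26 on knockout array 2, against 4.75 to 4.92 in wild type and 4.68 and 4.95 in knockdown. Slc1a5, a glutamine transporter, was at 8.36 on knockout array 1 and 7.14 on array 2, beside 7.02 to 7.30 in wild type. Slc38a1, another glutamine transporter, stood at 7.60 and 4.92 on the knockdown arrays, 9.19 and 10.05 in knockout and 7.70 to 8.85 in wild type. Creb3l1, a membrane-bound transcription factor of secretory cells, was at 6.27 on knockout array 1 and 8.98 on array 2, beside 5.96 to 7.41 in wild type. Aldh1l2, a mitochondrial folate enzyme, stood at 10.24 and 9.20 in knockout and at 7.83 to 8.87 in wild type, a difference of 1.25 (limma, adjusted p = 0.363).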
